A study of Mus musculus with 14 samples.

Results

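L3mbtl1 peaks at genes with little or no transcript in control cultures made up 55 of the 4677 peaks (1.18%) mapped in mouse hippocampus, and they lay at 51 protein-coding genes. A peak is a stretch of genome, in build mm10, that the authors listed as enriched with an antibody against L3mbtl1. Each of the 55 overlapped the window reaching 2000 bp to either side of an end of exactly 1 protein-coding gene. That gene had a mean level under 1 CPM (counts per 1000000 gene counts of the library) over the 4 control RNA-seq libraries. The genes were thus chosen by their control levels, which are given below as a description without a test. Of the 3098 peaks at exactly 1 coding gene with counts, the 55 were 1.78%, and the other 3043 lay at 2468 genes of 1 CPM or more. These 3043 peaks are the comparison used throughout.

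The RNA-seq libraries came from wild-type C57BL6 hippocampal neurons and glia in primary culture, dissociated from newborn pups (postnatal day 0 to 1) and grown in vitro over 14 days. Group CTRL (n = 4) received 0.1% DMSO for 15 h, and group PTX (n = 4) received 100 µM picrotoxin, a blocker of GABA-A receptors, for 15 h. The ChIP-seq chromatin came from untreated hippocampus of postnatal day 7 to 8 on a C57BL6/129 background, from wild-type (n = 3) and L3mbtl1-/- (n = 3) mice. The 6 ChIP-seq samples share 1 peak list, so no peak has a replicate error and the genotypes could not be set against each other here. Peaks and transcript levels thus come from different material, tissue in the former case and cultures in the latter.

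L3mbtl1 belongs to the MBT domain proteins, which hold histone tails that carry low degrees of lysine methylation. It has no known catalytic activity and is known for compacting nucleosome arrays and for repressing genes next to which it is tethered. Its relative in the fly acts as a tumor suppressor in the larval brain. In mammals the protein is expressed in brain and blood-forming tissue, among others.

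Gene counts per library ran from 14524916 to 19498189, and a count of 3 corresponded to 0.154 to 0.207 CPM. Markers of neurons summed to 2674 to 3190 CPM in CTRL and 2849 to 3132 CPM in PTX, and those of astrocytes to 4785 to 6935 and 3233 to 5216 CPM. Single neuronal markers differed in direction behind the like sums: mean levels in CTRL and PTX were 172 and 50.3 CPM for Neurod6 and 961 and 568 CPM for Syt1, but 202 and 357 CPM for Gad2 and 896 and 1313 CPM for Snap25. Astrocyte markers differed too: Gfap (1940 and 1181 CPM) and Aqp4 (846 and 337 CPM) were lower on average in PTX. Slc1a3 (2849 and 2776 CPM) was nearly level, and Aldh1l1 (170 and 182 CPM) was slightly higher in PTX. Among the other cell types looked at, the sum of choroid plexus markers spread widest between libraries, from 20.8 to 623 CPM in CTRL and from 14.3 to 537 CPM in PTX. This spread was mostly that of Ttr, from 9.49 to 615 CPM in CTRL and 4.77 to 531 CPM in PTX. Folr1 ran from 7.14 to 14.7 and 4.99 to 18.5 CPM, and was lowest in the CTRL library where Ttr was highest. Fibroblast markers ran from 15.8 to 179 CPM in CTRL and 16.5 to 173 CPM in PTX. Ependymal markers reached 94.4 CPM, oligodendrocyte markers 89.0 CPM, microglial markers 40.8 CPM, endothelial markers 7.58 CPM, epidermal markers 2.56 CPM and blood markers 0.413 CPM at most. No marker was at 0 in every library. The part of these cell types in the levels below was not tested, and in bulk cultures fewer cells of a type and less RNA per cell cannot be told apart.

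The name silent held for some of these genes and could not be read from the counts of others. The median CTRL mean of the 51 genes was 0.216 CPM, 18 were under 0.1 CPM, 17 between 0.1 and 0.5 CPM and 16 between 0.5 and 1 CPM. Of the 51, 7 had no count in any of the 8 libraries: Cdk2ap2, Srsf1, Pot1b, Vezf1, Entpd4, Ccl21b and Wnt1. Srsf1 is a splicing factor used by cells of all kinds, so its listed 0 goes against what is known of the gene. Srsf1 and Vezf1, a zinc finger transcription factor, are neighbours on chromosome 11. Of the 9 other coding genes listed in the count tables within 200000 bp of Srsf1, 6 were also at 0 in all 8 libraries. These were Vezf1, Cuedc1, the mitochondrial ribosome gene Mrps23, and 3 olfactory receptor genes, a family known from the nose. Around Cdk2ap2, whose product binds the cell cycle kinase CDK2, 17 of 31 coding genes were at 0 in all 8 libraries, among them Ppp1ca, a phosphatase subunit used by most cells, and Coro1b, an actin regulator. These 3 genes therefore lie in runs of genes listed at 0, and for them a listed 0 is not shown to be a lack of transcript. How the runs arose was not tested. Around Wnt1, a ligand of midbrain patterning, none of 16 coding genes was at 0. Pot1b, a telomere protein, had 2 of 5 such neighbours. Entpd4, a Golgi nucleotide phosphatase, had 2 of 7, among them Entpd4b, a gene of like name. Ccl21b, a chemokine with near-identical copies, had 4 of 6. Alignments that were not unique, 15.2% to 20.5% per library, were not counted to genes. For Entpd4 and Ccl21b, too, a listed 0 is not shown to be a lack of transcript. Over the whole annotation, 2895 of 20987 coding genes with counts (13.8%) were at 0 in all 8 libraries.

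RefSeq (GRCm38.p6) lists a start and its promoter sequence for 41 of the 51 genes. The following 7 stretches lie within 250 bases before the listed start and outside the gene's own interval, and each overlaps its gene's peak. They were chosen to show the peak of greatest width (Ankrd60), the genes of highest PTX level (Fosb and Gpr3), a gene pair with a peak each (C2cd4a of the pair C2cd4b and C2cd4a), a developmental factor (Atoh7) and genes known from testis (Zpbp2 and Thegl). Letters are written 5′ to 3′ on the gene's strand, and capitals mark any of the 10 motifs searched on either strand. The positions are chr2:173578274-173578523 (minus strand), chr7:19310119-19310295 (minus), chr4:133212537-133212786 (minus), chr9:67832331-67832580 (minus), chr10:63099535-63099784 (plus), chr11:98550847-98551096 (plus) and chr5:77015773-77016022 (plus).
Ankrd60: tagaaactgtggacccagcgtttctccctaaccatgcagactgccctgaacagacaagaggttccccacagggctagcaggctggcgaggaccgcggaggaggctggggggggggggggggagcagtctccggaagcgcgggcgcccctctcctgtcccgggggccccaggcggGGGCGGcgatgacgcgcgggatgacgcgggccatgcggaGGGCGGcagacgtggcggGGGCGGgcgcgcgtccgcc
Fosb: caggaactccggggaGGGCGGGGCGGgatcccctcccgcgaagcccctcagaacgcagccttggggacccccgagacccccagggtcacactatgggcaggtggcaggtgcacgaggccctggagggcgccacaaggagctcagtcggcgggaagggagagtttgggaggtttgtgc
Gpr3: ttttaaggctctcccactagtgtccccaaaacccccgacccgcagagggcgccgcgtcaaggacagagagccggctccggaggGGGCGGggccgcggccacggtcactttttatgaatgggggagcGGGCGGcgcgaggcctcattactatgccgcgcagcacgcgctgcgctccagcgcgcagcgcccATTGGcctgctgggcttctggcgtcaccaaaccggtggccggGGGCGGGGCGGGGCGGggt
C2cd4a: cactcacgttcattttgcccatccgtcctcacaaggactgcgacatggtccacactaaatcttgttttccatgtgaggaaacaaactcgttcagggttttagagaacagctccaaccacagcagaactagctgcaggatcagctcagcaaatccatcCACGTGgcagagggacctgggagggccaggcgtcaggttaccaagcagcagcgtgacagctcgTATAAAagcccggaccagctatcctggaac
Atoh7: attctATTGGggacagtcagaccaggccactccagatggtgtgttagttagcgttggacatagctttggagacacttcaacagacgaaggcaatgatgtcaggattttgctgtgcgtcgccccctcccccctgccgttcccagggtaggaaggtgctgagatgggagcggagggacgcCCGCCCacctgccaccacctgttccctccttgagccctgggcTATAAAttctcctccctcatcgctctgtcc
Zpbp2: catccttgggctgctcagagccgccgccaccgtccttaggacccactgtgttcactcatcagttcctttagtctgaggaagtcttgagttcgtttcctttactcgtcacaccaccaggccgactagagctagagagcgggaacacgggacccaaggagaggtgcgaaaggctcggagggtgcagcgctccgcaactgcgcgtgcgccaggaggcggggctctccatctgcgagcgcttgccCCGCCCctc
Thegl: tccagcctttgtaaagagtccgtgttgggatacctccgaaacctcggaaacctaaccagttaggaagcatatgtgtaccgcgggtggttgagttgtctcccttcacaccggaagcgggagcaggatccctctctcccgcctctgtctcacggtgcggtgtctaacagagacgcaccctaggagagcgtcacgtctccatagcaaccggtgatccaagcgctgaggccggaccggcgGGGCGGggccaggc

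The sequences differ in base composition. The Ankrd60 stretch holds 26 CpG and 73.6% G and C, and its capitals are 3 copies of GGGCGG, the core of the GC box. The Gpr3 stretch holds 29 CpG with 5 GGGCGG and 1 CCAAT, read on the opposite strand as ATTGG. The Fosb stretch, at 177 bases, holds 2 overlapping GGGCGG and 11 CpG. The C2cd4a and Atoh7 stretches hold 9 CpG each, and both carry TATAAA, the TATA box, close to the listed start. The peak covered all 250 bases at Ankrd60, C2cd4a, Atoh7 and Zpbp2, 140 bases at Fosb, 130 at Thegl and 108 at Gpr3.

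Coding genes with a peak of their own, meaning a peak at no other coding gene's ends, are described here by CTRL level. Among genes without a CTRL count, 9 of 3769 (0.239%) had one. The share was 0.458% (9 of 1964) above 0 and under 0.1 CPM, 1.25% (17 of 1363) from 0.1 to under 0.5 CPM and 2.52% (16 of 635) from 0.5 to under 1 CPM. It was 6.84% (133 of 1945) from 1 to under 5 CPM and 27.6% (676 of 2452) at 100 CPM or more. Over all genes under 1 CPM it was 51 of 7731 (0.660%), against 2468 of 13256 (18.6%) at 1 CPM or more. Counting peaks shared with other coding genes, 162 genes under 1 CPM (2.10%) had a peak, against 3659 (27.6%) of the others. The 51 genes thus lie at the low end of a graded relation, and the shares are a description.

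**Figure D1:**
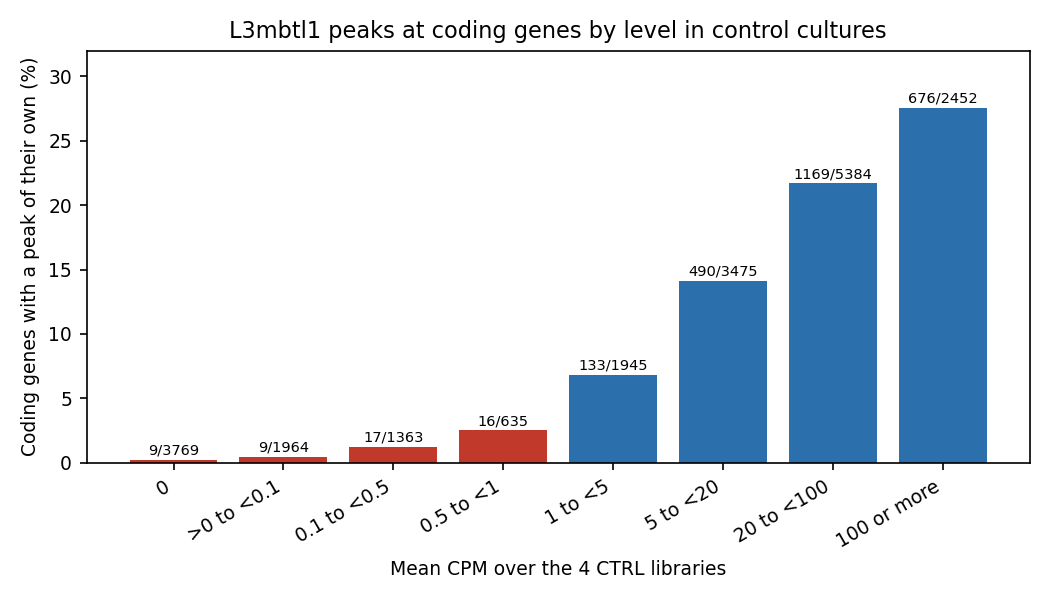
Share of coding genes with an L3mbtl1 peak of their own (%, vertical axis) by mean CTRL level (CPM, horizontal axis), with the number of genes over each bar and the genes under 1 CPM in red. The share runs from 0.239% at 0 CPM to 27.6% at 100 CPM or more.

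Promoter CpG content of the genes with a peak of their own was higher at the median than that of the other coding genes under 1 CPM. It was measured as the observed to expected number of CpG in the window from 250 bp before to 50 bp after a listed start, taking the highest window of a gene. Its median was 0.743 over the 41 genes with a peak of their own and a listed start, and 0.200 over 6216 other coding genes under 1 CPM. Genes with shared peaks only were not left out of the latter. Of the genes under 1 CPM, 28 of 697 (4.02%) with a ratio of 0.6 or more had a peak of their own, against 13 of 5560 (0.234%) below 0.6 and 10 of 1474 (0.678%) without a listed start. Among genes of 1 CPM or more the shares were 22.0% (1778 of 8082), 6.45% (163 of 2526) and 19.9% (527 of 2648). At a ratio of 0.6 or more, then, the share was 4.02% under 1 CPM and 22.0% at 1 CPM or more. These shares are over genes, which are not replicates, and no test was made on them.

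The promoters nearest to the peaks had a CpG content between those of all promoters and of peaks at more highly expressed genes. Of the 41 windows nearest to the peaks, 28 (68.3%) had a ratio of 0.6 or more, against 90.2% of 1984 windows nearest to peaks at genes of 1 CPM or more and 47.7% of all 21263 coding windows. The medians of the ratio were 0.743 (quartiles 0.580 and 0.877), 0.880 and 0.567 in the same order. The median window held 21 CpG and 63.7% G and C at the low genes, 27 CpG and 65.7% at the others, and 13 CpG and 56.3% over all coding windows. The nearest window was not always close: 9 of 45 peaks (20.0%) lay over 2000 bp from a listed start, against 3.01% at genes of 1 CPM or more. Vezf1 held 51 CpG in its window, the most of the 41. Slco1a6 held 1, the fewest, with its peak 100603 bp from the start. The Atoh7, Ascl4 and Gpr25 windows had low ratios of 0.455, 0.213 and 0.283. The Atoh7 peak covered its window, while the Ascl4 and Gpr25 peaks lay downstream of theirs, with their middles 1250 and 875 bp behind the start.

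**Figure D2:**
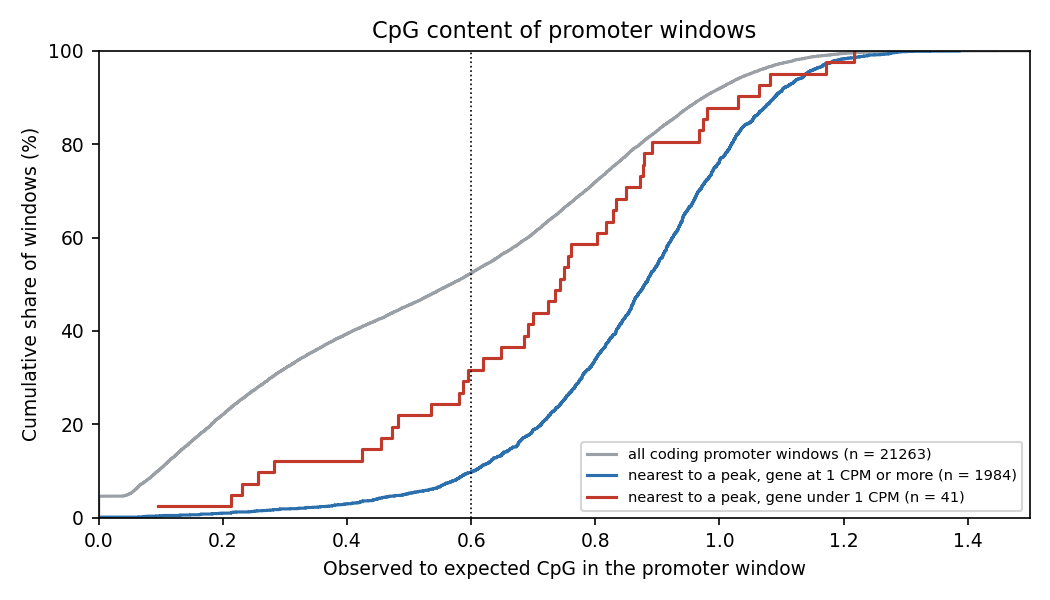
Cumulative share of promoter windows (%, vertical axis) by observed to expected CpG (horizontal axis) for all coding windows (grey, n = 21263), windows nearest to peaks at genes of 1 CPM or more (blue, n = 1984) and at genes under 1 CPM (red, n = 41). The red line runs between the others over most of the range, with a median of 0.743.

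Motifs were counted on both strands of the 300 bp windows as a description. GGGCGG was in 29 of 41 windows (70.7%), in 76.7% of windows at genes of 1 CPM or more and in 46.2% of all coding windows. CCAAT was in 19 (46.3%), 39.0% and 38.2%. TATAAA was in 3 (7.32%; Acot4, Atoh7 and C2cd4a), 5.39% and 12.6%. CACGTG, the E-box of bHLH factors, was in 3 (Acot4, C2cd4a and Kcnk5), 10.7% and 7.84%. TGANTCA, a pattern that takes in the AP-1 site but leaves its middle letter free, was in 3 (Acot4, Gpr3 and Rbm38), 3.02% and 6.99%. GCATGCGC, part of the NRF1 site, was in 3 (Casz1, Pot1b and Ripply2), 6.25% and 3.52%. CCGGAAGT, an ETS site, was in 3 (Pot1b, Pou2f2 and Vezf1), 6.65% and 5.15%. AAGATGGC, the YY1 site, was in Mospd3 alone, against 4.54% and 3.05%. TGACGTCA, the cAMP response element, and ATTTGCAT, the octamer bound by POU factors, were in none of the 41 windows, against 2.77% and 1.41% at genes of 1 CPM or more. GGGCGG overlaps itself in runs such as those of Fosb and Gpr3. A match says only that these letters occur in the window.

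Scores of the 55 peaks lay within the range of the comparison peaks, and so did all widths but that of the Ankrd60 peak. The score is the authors' own value per peak, and its scale is not given in the sources used here. Its median was 11.7 (quartiles 9.25 and 14.5, range 8.17 to 35.2), against 10.7 (9.25 and 13.4) for the peaks at genes of 1 CPM or more. Of the 55, 32 scored above the median of the list and 7 (12.7%) were in its top 10%. The median width was 743 bp, against 785 bp, and 18 peaks (32.7%) were at least 1000 bp wide, against 33.4% of all peaks. Both medians lay within the quartiles of the comparison peaks.

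The Ankrd60 peak stood apart. Ankrd60 encodes an ankyrin repeat protein, and its peak (chr2:173578080-173586294) was the widest of all 4677 at 8215 bp and the 11th by score at 35.2. The widest peak at a gene of 1 CPM or more spanned 5559 bp. It covered the Ankrd60 start and reached upstream over an end of the noncoding gene Ppp4r1l-ps. Ankrd60 had 0 counts in CTRL and 1 count in PTX. The next coding gene, 1700021F07Rik, lay 49578 bp away and was at 0 CPM in CTRL.

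The other high scores belonged to genes of unlike function. Mospd3, which encodes a membrane protein with a major sperm protein domain, had a score of 22.5 over 196 bp, and Cdk2ap2 a score of 21.6 over 1203 bp. The wider peak at 4933440N22Rik scored 20.3 and lay inside Hnrnpf, an RNA-binding protein gene at 187 CPM in CTRL. C2cd4b, whose product is a C2 domain protein studied in pancreatic islets, had a peak of 3021 bp with a score of 19.4. Snx20, a sorting nexin of blood cells, scored 18.9, Srsf1 17.9, Ascl4 16.4 and Zpbp2, an acrosome protein of sperm, 15.8. The lowest scores, 8.17, were those of Wnt1 and of Gjd3, a connexin. The narrowest peak was the smaller one at Pou2f2, with 181 bp, followed by Entpd4 with 191 bp, Mospd3 with 196 bp and Mei4, a meiotic recombination gene, with 216 bp.

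**Figure D3:**
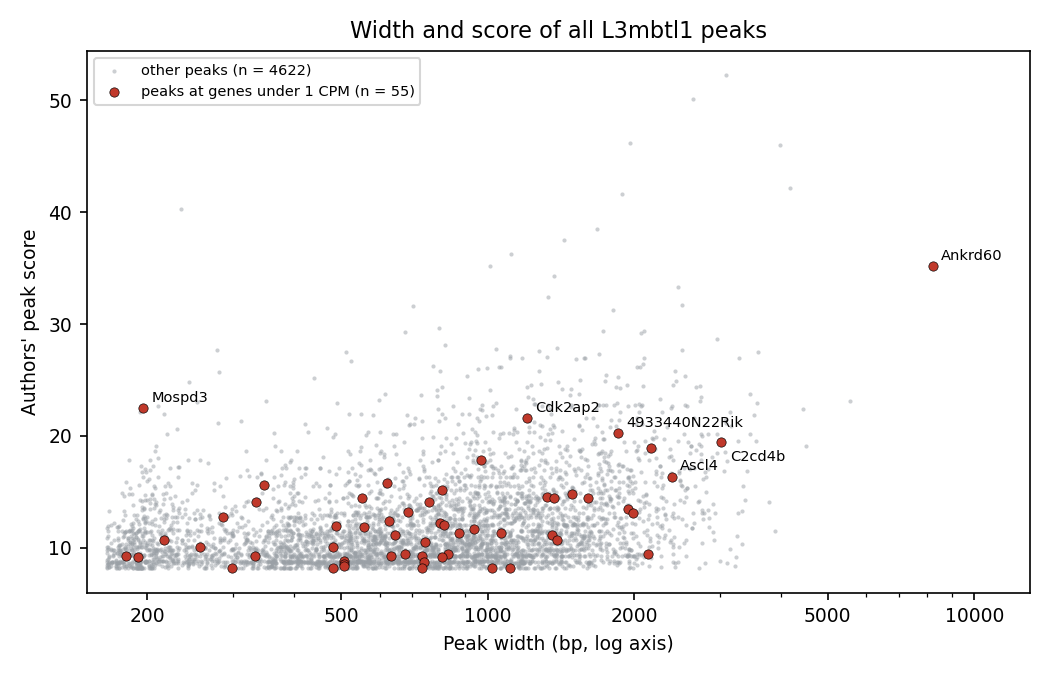
Authors' score (vertical axis, no unit) against width (bp, log axis) of 55 peaks at genes under 1 CPM (red) and the other peaks of the list (grey). The red points spread through the grey ones, with Ankrd60 alone at 8215 bp.

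Most peaks lay at or near a gene start, and 9 lay far from any listed one. A start was listed for the genes of 45 peaks, of which 15 (33.3%) covered it, 21 lay within 2000 bp of it and 9 (20.0%) lay farther away. At genes of 1 CPM or more, 38.9% covered a start and 72 of 2395 (3.01%) lay farther than 2000 bp. Both peaks at Prdm12, a transcription factor gene of pain-sensing neurons, lay 15230 and 14295 bp downstream of the start, by the end of the gene. The second Kcnk12 peak lay 52273 bp downstream, also by the gene's end, and the Slco1a6 peak 100603 bp downstream. The Lactbl1 peak lay 15088 bp, the 1700001O22Rik peak 7044 bp and the Wnt1 peak 2899 bp downstream. Both peaks at Pou2f2, which encodes the lymphoid and neural factor Oct-2, lay at -47926 and -46945 bp from the listed start, upstream of it, but at the end of the gene's interval on that side. Genes without a listed start included Snx20, Rimbp3, Irx5, Prss57, Dok2, Rnf113a2, Entpd4, Cby3 and Gjd3.

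**Figure D4:**
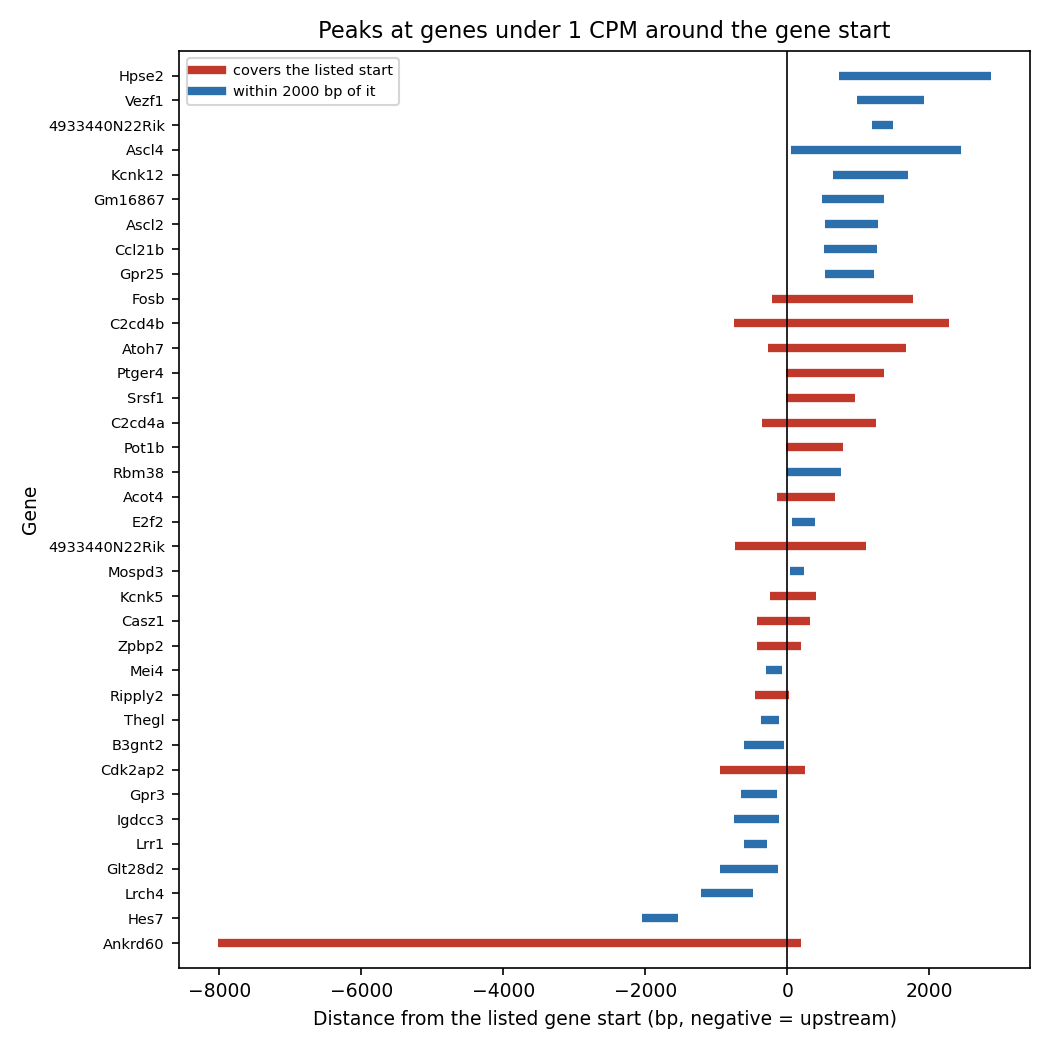
Extent of the 36 peaks that cover a listed start (red) or lie within 2000 bp of it (blue), in bp from the start (horizontal axis, negative is upstream), with 1 bar per peak and the gene on the vertical axis. Of these, 15 cover the start, and the Ankrd60 peak reaches farthest upstream.

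Some peaks also lay in or close to other genes. In 5 cases (9.09%) the peak lay in the body of another coding gene, against 1.91% of peaks at genes of 1 CPM or more. These were both peaks at 4933440N22Rik inside Hnrnpf, the Prss57 peak inside Fstl3 (1.46 CPM), the Dok2 peak inside Xpo7 (83.9 CPM) and the Rnf113a2 peak inside Bbof1. An end of a noncoding gene lay at 10 peaks (18.2%), against 24.5%. The next coding gene lay at a median gap of 13000 bp against 28870 bp. It reached 1 CPM in CTRL in 35 of 54 cases (64.8%), against 80.7%, with a median of 12.9 against 20.5 CPM. A gene of 1 CPM or more was thus the next neighbour of most of the 55 peaks. Which gene a peak acts on, if any, was not measured.

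In a few places peaks came in pairs. The 4 genes with 2 peaks were Pou2f2 (gap 214 bp), 4933440N22Rik (79 bp), Prdm12 (77 bp) and Kcnk12 (50249 bp). At Kcnk12, which encodes a tandem-pore potassium channel, the pair lay at opposite ends of the gene. C2cd4b and its relative C2cd4a, neighbours on chromosome 9, each had a peak over a listed start, with 69368 bp between the peaks. The Srsf1 and Vezf1 peaks were 20940 bp apart. The 55 peaks were on 18 chromosomes, 7 of them (12.7%) on chromosome 11, against 7.42% of all peaks, and none on the X chromosome, which held 26 of the 4677.

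Of the 13 gene lists used, developmental transcription factors held the most of these genes. They gave 7 of the 51 genes (13.7%), against 26 of the 2468 genes of 1 CPM or more (1.05%) and 254 of all 7731 coding genes under 1 CPM (3.29%). The 7 were Ascl2 and Ascl4, bHLH factors of the achaete-scute family, Atoh7, the bHLH factor of retinal ganglion cells, Hes7, of the segmentation clock, Irx5, an Iroquois homeobox factor, Pou2f2 and Prdm12. Their peaks had a median score of 13.4, against 11.7 over all 55. Of the 254 low-level factors, 2.76% had a peak of their own, against 0.660% of all low-level genes. The share was near that of 2 other lists, ion channels (2.52% of 119) and G protein-coupled receptors and neuropeptides (2.22% of 180). It was 4.02% over all low-level genes with a promoter CpG ratio of 0.6 or more.

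G protein-coupled receptors and neuropeptides gave 4 genes (7.84%, against 0.891% and 2.33%), among them Gpr3, a receptor that raises cAMP without a ligand, Ptger4, the EP4 receptor of prostaglandin E2, and the orphan receptor Gpr25. Ion channels gave 3 (5.88%, against 1.58% and 1.54%), Kcnk5, Kcnk12 and Gjd3. Germ cell and meiosis genes gave 2, Mei4 and Zpbp2 (3.92%, against 0.446% and 3.35%). Immune receptor, cytokine and interferon genes gave Ccl21b alone, of 418 low-level genes on that list, and liver-type transport and metabolism genes gave Slco1a6, an organic anion carrier, of 290. No gene came from the chemosensory receptors, which were 1396 of the low-level genes (18.1%), nor from the keratins and cornified envelope genes (184 low-level genes). The same was true of the striated muscle (64), zinc finger Zfp or Zscan (44), histone (43), erythroid (26) and motile cilium (17) lists. These are counts without a test. In all, 18 of the 51 genes were on a list.

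The threshold of 1 CPM fell within a continuous range. Just inside it were Gpr3 at 0.998 ± 0.493 CPM (SD, n = 4), Pou2f2 at 0.908 ± 0.0884 CPM (SD, n = 4) and E2f2, a cell cycle factor, at 0.867 ± 0.329 CPM (SD, n = 4). Just outside it, with peaks of the same kind, were Prr15 at 1.02 ± 0.427 CPM, Rel, an NF-kB subunit, at 1.11 ± 0.0666 CPM, and Tbc1d2, a Rab regulator, at 1.13 ± 0.242 CPM (SD, n = 4 each). The Tbc1d2 peak scored 42.1 over 4172 bp.

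After picrotoxin, 9 of the 51 genes (17.6%) had a mean of 1 CPM or more in PTX, where 4.17% of all 7731 coding genes under 1 CPM in CTRL did. The 51 genes started from higher levels, however: their median CTRL mean was 0.216 CPM, against 0.0128 CPM over the 7680 others. Genes whose peaks are all shared with other coding genes count among these others. From 0.1 to under 0.5 CPM in CTRL, 3 of 17 genes with a peak of their own and 7.65% of 1346 others reached 1 CPM in PTX. From 0.5 to under 1 CPM the counts were 6 of 16 and 26.5% of 619 others. Under 0.1 CPM, none of the 18 genes with a peak of their own reached it. The 9 genes were Fosb, Gpr3, C2cd4b, Ptger4, Casz1, Ascl2, Rimbp3, Slco1a6 and Dok2, and 2 of them, Fosb and Gpr3, also reached 2 CPM. The remaining 42 genes stayed under a mean of 1 CPM in PTX.

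Fosb, a subunit of the AP-1 transcription factor and an immediate early gene of neurons, reached by far the highest level. Its CTRL libraries read 0.799, 1.04, 0.615 and 0.207 CPM, and its PTX libraries 40.8, 31.8, 53.2 and 48.1 CPM. The lowest PTX library was thus far above the highest CTRL library, and the PTX mean was 65.4 times the CTRL mean. These levels rest on 47 counts in CTRL and 2808 counts in PTX. The Fosb peak covered the start, spanned 1991 bp and scored 13.1, which placed it 1233rd of 4677.

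Gpr3 read 0.856, 1.73, 0.718 and 0.688 CPM in CTRL and 12.6, 8.67, 10.6 and 11.1 CPM in PTX. The groups did not overlap, and the ratio of means was 10.8. Its peak, 508 bp wide with a score of 8.57, ended before the start, with its middle at -396 bp from the start.

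C2cd4b read 0.457, 0.519, 0.205 and 0.207 CPM in CTRL and 1.42, 1.66, 1.53 and 1.13 CPM in PTX, without overlap. Its neighbour C2cd4a had 3 counts over CTRL and 6 over PTX, close to the detection floor, so its levels could not be compared. Ptger4 read 0.457, 0.173, 0.513 and 0.207 CPM in CTRL and 1.11, 1.60, 1.19 and 1.43 CPM in PTX. All 4 PTX libraries of Ptger4 were above 1 CPM, as were those of Fosb, Gpr3 and C2cd4b, and of no other of the 51 genes.

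Ascl2 read 0.114, 0.173, 0.410 and 0.0688 CPM in CTRL and 1.54, 1.07, 0.862 and 1.13 CPM in PTX, with the peak inside the gene, 905 bp behind the start. Thegl, a gene named for its likeness to the testis gene Theg, read 0.114, 0.231, 0.103 and 0.275 CPM in CTRL and 0.862, 0.831, 0.995 and 0.834 CPM in PTX. Neither gene's groups overlapped, and both rested on few CTRL counts, 14 for Ascl2 and 12 for Thegl over 4 libraries. Dok2, an adaptor of tyrosine kinase signalling, ran from 0.343 to 0.821 CPM in CTRL and from 0.862 to 1.31 CPM in PTX. Hes7 ran from 0.343 to 0.410 CPM in CTRL and from 0.431 to 0.894 CPM in PTX.

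Lower in every PTX library than in any CTRL library were Pou2f2 and Ripply2. Pou2f2 read 0.856, 0.923, 1.03 and 0.826 CPM in CTRL and 0.616, 0.534, 0.597 and 0.715 CPM in PTX. Ripply2, a transcriptional repressor that acts in somite formation, read 0.856, 0.461, 0.615 and 0.826 CPM in CTRL and 0.0616, 0.238, 0.133 and 0.298 CPM in PTX, from 47 and 12 counts. In all, the groups did not overlap in 9 genes with higher PTX levels (5.86% of all coding genes under 1 CPM in CTRL) and in 2 with lower levels (1.58%). Since the CTRL levels chose the genes, nothing is read from these counts.

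**Figure D5:**
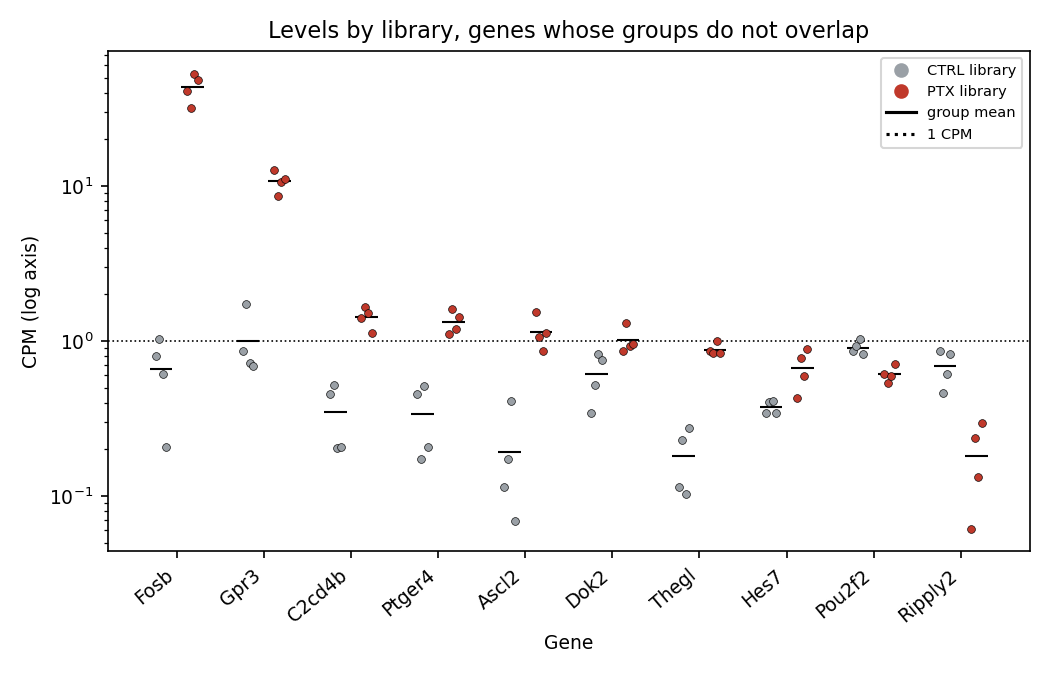
Level (CPM, log axis) in each CTRL (grey) and PTX (red) library of the genes whose groups do not overlap and that have at least 40 counts in a group, with bars at the group means and a dotted line at 1 CPM. Fosb and Gpr3 sit well above the line in PTX, and Pou2f2 and Ripply2 are lower in PTX.

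The other genes with a PTX mean of at least 1 CPM had overlapping groups. Casz1, a zinc finger factor of heart and retina, ran from 0.343 to 0.865 CPM in CTRL and 0.831 to 1.73 CPM in PTX. Rimbp3, a spermatid protein, ran from 0.514 to 1.13 and 0.995 to 1.37 CPM, and Slco1a6 from 0.461 to 1.38 and 0.678 to 1.43 CPM. Over all 51 genes, the PTX mean was above the CTRL mean in 23, below it in 21 and equal, at 0, in 7. The means of the developmental factors did not all differ in the same direction. PTX means were above CTRL for Ascl2 and Hes7 and below it for Pou2f2, each without overlap of the groups. They were also below CTRL, but with overlapping groups, for Ascl4 (0.337 against 0.487 CPM), Atoh7 (0.0149 against 0.0571), Irx5 (0.201 against 0.306) and Prdm12 (0.0634 against 0.127). Atoh7 rested on 4 counts in CTRL and 1 in PTX, and Prdm12 on 9 and 4, close to the detection floor. The ion channel genes were lower on average in PTX, Kcnk5 at 0.620 against 0.794 CPM, Kcnk12 at 0.544 against 0.746 CPM and Gjd3 at 0.0303 against 0.196 CPM, with overlapping groups in each.

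In the fit over all genes, 16 of the 51 genes had enough counts to be tested and 35 did not. The filter on low counts covered both groups, so a gene low in CTRL could enter through its 4 PTX libraries alone. Of the 16, 6 passed an adjusted p of 0.05 as higher in PTX (edgeR quasi-likelihood test, without pairing): Ascl2, C2cd4b, Fosb, Gpr3, Ptger4 and Thegl. Ascl2, C2cd4b, Ptger4 and Thegl read at most 0.410, 0.519, 0.513 and 0.275 CPM in CTRL and entered through PTX. The filter thus favoured calls as higher over calls as lower. The background was 19.0% of all 15959 tested genes, and 35.6% of the 623 tested coding genes under 1 CPM in CTRL. None passed as lower, where 20.1% of all tested genes and 2.09% of the low-level coding genes did. At an unadjusted p of 0.05, 8 were higher and 0 lower by edgeR. No share over all genes was taken at an unadjusted p. Those counts, and the like counts of DESeq2 below, therefore have no background and nothing is read from them. DESeq2, which gave an adjusted p for 35 of the genes, called the same 6 higher and 1 lower, Ripply2, at an adjusted p of 0.05 (16.8% and 14.7% of its 20795 tested genes), and 8 and 1 at an unadjusted p of 0.05. With a replicate block, which pairs same-numbered libraries, 8 passed as higher, adding Casz1 and Dok2, and 0 as lower. The block also moved the share called higher over all tested genes from 19.0% to 25.7%, and the share called lower from 20.1% to 29.6%. As above, the CTRL levels chose the genes, and the calls are given beside the background only.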

How the data were processed

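The 8 tables deposited by the authors hold raw counts for each Ensembl gene. Per the labels' protocols, 15 ng of ribosomal-RNA-depleted RNA entered each ScriptSeq v2 library. The submitters' processing notes name CASAVA 1.8, TopHat2 2.0.9, HTSeq 0.6.1, Bowtie2 2.2.4 and mm10. The strand setting, annotation release, peak caller and IDR threshold are unstated in these sources, so overlapping and antisense genes cannot be told apart. The peak list gives 1 score per peak, deposited by the authors for 6 ChIP-seq samples, after MNase digestion of DSG- and formaldehyde-fixed chromatin.

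CPM is a count divided by the library's gene total without the 5 summary lines. These lines put 19.9% to 26.8% of alignments outside genes. RefSeq coding genes (GRCm38.p6, 21900) were matched to identifiers by symbol (20598) or synonym (389), and 913 had no match. An overlap was 1 bp or more. PTX and CTRL were compared with edgeR 4.0.16 (TMM, filterByExpr, quasi-likelihood, Benjamini-Hochberg) and DESeq2 1.42.0 in R 4.3.3. The edgeR step was tested on simulated data. Same-numbered libraries deviated together (correlations 0.153 to 0.770), and the numbers were taken as pairs in the replicate block only. The main edgeR fit, DESeq2 and the other alternatives were unpaired. CTRL 3 correlated no better with PTX 3 (0.153) than with PTX 2 (0.207) or PTX 4 (0.209). Whether replicates were separate cultures is stated only as biological replicates, and p-values measure the spread between these samples.

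The peaks, gene lists and tests were chosen with earlier results of these data known. Named genes were taken by rule: the 10 highest, widest and narrowest peaks, the 10 genes highest in PTX, 3 genes on each side of the threshold, up to 6 per list, genes with 2 peaks, genes at 0 and called genes. Others, such as the neighbours of genes at 0, were named after their values were seen. The values of 1 gene are not reported here. Alternatives covered the threshold, the window, scaling, score, filter, tool, replicate block and left-out libraries.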

Additional observations from a re-analysis of the deposited data

Results flagged for a closer look

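In 4 of 62 groups of 4 libraries with at least 10 counts, 1 library lay far from the other 3 by Dixon's criterion, which chance does in about 1 group in 20. Gpr3 in CTRL replicate 2 read 1.73 CPM, where the others read 0.688 to 0.856 CPM. Kcnk12 in CTRL replicate 3 read 0.974 CPM, where the others read 0.634 to 0.688 CPM. Acot4 in CTRL replicate 1 read 0.457 CPM, where the others read 0.344 to 0.359 CPM. Rimbp3 in PTX replicate 2 read 1.37 CPM, where the others read 0.995 to 1.05 CPM.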

How the results depend on the processing

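The number of peaks follows the level threshold. A limit of 2 CPM gave 90 peaks at 82 genes, and 0.5 CPM gave 37 at 35. Keeping the upper part of the scores, above the list's median, left 32 peaks at 31 genes with a median score of 14.3. Windows of 1000 and 5000 bp, TMM-scaled CPM and the peak midpoint gave 56 to 64 peaks. Leaving out each CTRL library in turn gave 53 to 56 peaks at 49 to 52 genes, with median scores of 11.31 to 11.75 and widths of 749.5 to 798 bp. Without the 7 genes at 0 in all libraries, 48 peaks at 44 genes had a median score of 11.6, and without the Ankrd60 peak 54 peaks had 11.5 (both alternatives chosen after seeing the data). A limit of 2 CPM in PTX left 2 genes in place of 9, and leaving out a PTX library gave 8 to 9.

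Genes called higher in PTX numbered 6 to 7 when each library was left out in turn, 7 without a filter on low counts, and 8 with the replicate block, under which 0 were lower. With a library left out, 2519 to 3356 of all 16175 to 16242 tested genes were called higher and 2207 to 3199 lower. Without the filter the totals were 3059 higher and 3074 lower of 29379. Genes called lower numbered 1 with DESeq2 and 1 without the filter, Ripply2 in both. It was also the gene called lower without CTRL replicate 2 or any 1 PTX library, and the range over left-out libraries was 0 to 1. The cause was not tested. At 3 counts or fewer per library a level was not distinguishable from 0 at this depth. The median CTRL mean, 0.216 CPM, lay near that floor, and 35 genes were not tested.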
